A study of Homo sapiens with 24 samples.

Results

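Circular RNAs (circRNAs) whose genomic span, from the first to the last base of the circle, was 5000 to 30000 bases made up 1428 of the 2997 circRNAs tabulated for HCC827 cells, or 47.6%. They were chosen by span alone, as the end minus the start plus 1 base, and no read count entered the choice. HCC827, a lung adenocarcinoma line of human origin, grows on a mutant, constantly active EGFR, and osimertinib (Osi) is a kinase inhibitor directed at mutant EGFR. The cells, of genotype WT in the labels, were cultured for 10 days with DMSO, the solvent control, or with Osi, with 3 libraries in each group. The series holds 24 libraries in 8 groups, and circRNAs were tabulated for these 6. For host genes and cell type markers alone, counts came from other groups of the series. These were Parental cells and, for hosts only, drug-tolerant persister cells, both with empty vector and with 3 libraries in each group. The labels do not say that replicates came from separate cultures, so the p-values measure only the spread between libraries.

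A circRNA forms when the spliceosome joins the end of a downstream exon to the start of an upstream exon of the same transcript, a reaction called back-splicing. The closed circle has no free ends, so exonucleases degrade it slowly, and it can accumulate although its host gene is mostly spliced to linear mRNA. Circles usually omit the gene's first and last exons, because these lack one of the splice sites that back-splicing needs, and long flanking introns with paired repeats favour their formation. A read that crosses the back-splice junction is the evidence for a circle. Its count reports the junction, not which exons between the ends were kept.

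The back-splice junction is what identifies a circle, so the junctions of 8 members that the results below turn on are printed here. Each line holds the last 25 bases of the circle's downstream exon followed by the opening 25 bases of its upstream exon, 5′ to 3′ along the mRNA, and the capitals mark the 10 bases on either side of the junction. Sequences come from GENCODE release 29 transcripts, in which the host gene had exactly 1 pair of exons with the circle's span, or, for hsa_circATF6_019, a span 1 base shorter. They were matched by span and host and not by position, since the deposited coordinates are on build hg19.
hsa_circATF6_019: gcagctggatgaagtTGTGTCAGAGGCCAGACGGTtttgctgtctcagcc
hsa_circATF6_024: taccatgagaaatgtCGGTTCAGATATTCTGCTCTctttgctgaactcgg
hsa_circARHGEF26_005: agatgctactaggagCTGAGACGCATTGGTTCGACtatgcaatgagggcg
hsa_circN4BP1_001: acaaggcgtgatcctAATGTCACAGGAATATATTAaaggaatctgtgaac
hsa_circSWT1_002: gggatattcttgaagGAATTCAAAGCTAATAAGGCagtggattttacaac
hsa_circCASP8AP2_006: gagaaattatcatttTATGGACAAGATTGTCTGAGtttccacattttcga
hsa_circPDK1_008: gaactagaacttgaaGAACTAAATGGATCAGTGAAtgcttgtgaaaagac
hsa_circMAN1A2_003: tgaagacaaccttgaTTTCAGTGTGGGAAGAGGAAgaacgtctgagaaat
Both ATF6 circles use exon 7 of the same transcript, but from opposite sides. hsa_circATF6_019 joins the end of exon 8 to the start of exon 7, and hsa_circATF6_024 joins the end of exon 7 to the start of exon 2. The ARHGEF26, N4BP1, SWT1, CASP8AP2 and PDK1 circles were each seen in the libraries of 1 treatment, and the MAN1A2 circle had the most reads of all members.

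The members lay on 23 chromosomes, with the largest numbers on chromosome 1 (152), chromosome 2 (142) and chromosome 3 (101). There were 770 on the plus and 658 on the minus strand. Their median span was 12399 bases, against 1698 for the 1123 circRNAs under 5 kb and 45530 for the 446 over 30 kb. Just inside the lower limit stood hsa_circSAE1_003 (5012 bases, mean 0.417 reads over the 6 libraries), hsa_circMAP4K3_002 (5013 bases, mean 0.50 reads) and hsa_circTMCC1_030 (5024 bases, mean 4.83 reads), and just outside it hsa_circGFM2_001 (4990 bases, mean 3.83 reads), hsa_circVPS35_001 (4988 bases, mean 3 reads) and hsa_circCELSR1_018 (4957 bases, mean 2 reads). At the upper limit, hsa_circABCA13_002 (29998 bases, mean 0.667 reads), hsa_circARHGAP29_003 (29924 bases, mean 2.33 reads) and hsa_circNBEA_011 (29920 bases, mean 1.06 reads) were inside, while hsa_circASPH_024 (30046 bases, mean 5.16 reads), hsa_circANKRD13C_028 (30053 bases, mean 3.95 reads) and hsa_circPCDH7_004 (30063 bases, mean 1.5 reads) were outside.

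Most of the span of these circles was intron. Of the 1364 members whose host is annotated, 1110 (81.4%) had exactly 1 pair of exon ends in the host with the same span, 4 of them, hsa_circATF6_019 among these, at 1 base less than the deposited span. In those 1110 the median circle took in 4 annotated exons (quartiles 3 and 6, maximum 32), and 1 member was a single exon. The annotated exons came to a median of 575 bases (quartiles 411 and 826), or 4.97% of the span. Of the remaining members with an annotated host, 250 matched no pair of exon ends and 4 matched several. Only exons on the strand of the row were compared, so a row on the opposite strand to its host could not match. Shorter and longer circles had medians of 2 and 6 exons, with exon bases at 24.7% and 1.52% of the span, an order that the choice by span itself favours.

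The position of the circles within their hosts was uneven. The opening exon was exon 2 of the transcript in 365 of the 1110 (32.9%) and exon 3 in 182, but exon 1 in 2 members, and 4 circles ended in the last exon. The circle lay wholly inside the coding region in 857 and reached outside it, or into a transcript model's noncoding part, in 241. Among the members, exon 2 opened 28.2% of circles from 5000 to 10000 bases, 33.2% over 10000 and up to 20000 bases and 40.9% over 20000 bases. Median exon content in these ranges was 505, 588 and 720 bases. Over 30 kb the exon 2 share was 37.6%, so the rise did not go on beyond the members. The share was 25.2% under 5 kb and 30.8% over all circRNAs with 1 matched pair, beside the members' 32.9%.

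**Figure D1:**
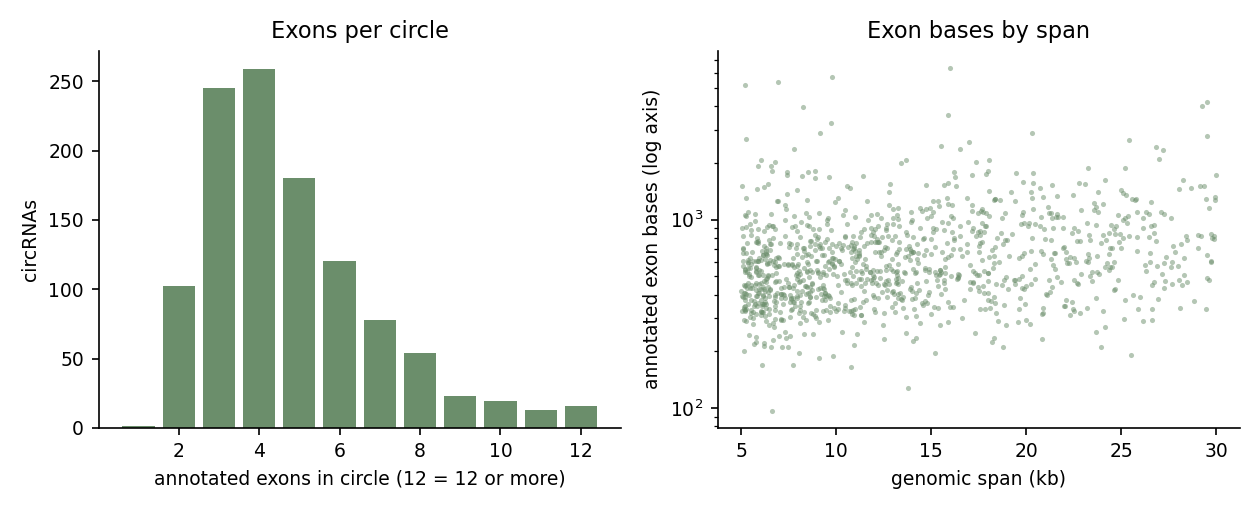
Left, number of members by the annotated exons they take in, where 12 stands for 12 or more; right, annotated exon bases (log axis) against genomic span in kb, 1 point per member. The bars peak at 4 exons with 259 members, and the exon bases rise little while the span grows from 5 to 30 kb.

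The 1428 members came from 1317 host genes, of which 1222 gave 1 member, 88 gave 2 and 7 gave 3, and 9 members had no host symbol. Of 1427 distinct positions, 55 (3.85%) shared a start or an end with another circRNA of the table. hsa_circCHD9_011 and hsa_circCHD9_051, from a chromatin remodeller, shared their end at chr16:53288350-53302038 and chr16:53289512-53302038 and opened at exons 18 and 19. hsa_circRAB6A_009 and hsa_circRAB6A_014 held the same position and the same values in all libraries, and they were the only members whose position another row repeats.

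Host genes were expressed in this line. In 3 libraries of Parental HCC827 cells with empty vector (EV), a separate group of the series, 1256 of the 1317 hosts were in the gene table, and 1251 of these (99.6%) had at least 10 counts in every library, against 59.7% of 20078 genes that host no circRNA of the table. Epithelial identity was plain in those libraries, with EPCAM at 12846 to 14740 counts, CDH1 at 32417 to 38544 and KRT8 at 63812 to 77406. KRT18 stood at 50345 to 60089 and KRT19 at 49489 to 58953. The leukocyte marker PTPRC was at 0, the endothelial marker PECAM1 at 138 to 168 and the fibroblast marker COL1A1 at 552 to 596. Gene counts are not scaled for library size, and they were not tabulated under these names for the DMSO and Osi libraries.

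Back-splice reads were few, which sets how firmly any single circle can be compared. All circRNAs together had 4944, 5996 and 5870 reads in the DMSO libraries and 7333, 7300 and 7130 in the Osi libraries. The median member had a mean of 1.17 reads per library, 692 members (48.5%) had a mean of 1 or less, and 46 had a mean above 10. The 100 most abundant members held 35.2% of the members' reads and the top 10 held 6.75%. The deposited values undo to numbers of which 63.9% of those above 0 were whole (tolerance 0.0001), so a value such as 6.5 is the authors' and not a rounding made here.

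The members gave more reads after Osi. Their summed reads were 2341, 2842 and 2696 in DMSO and 3496, 3392 and 3241 in Osi. The groups did not overlap, and the mean rose 1.29-fold, from 2626 ± 258 to 3376 ± 128 (SD, n = 3; exact permutation test, two-sided, p = 0.1, the smallest that 3 against 3 allows). The total over all circRNAs rose by the same ratio, 1.29, with the same p of 0.1 in the exact test, and the depth of these libraries in linear reads was not analysed here, so more circles and deeper sequencing cannot be told apart.

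As a share of all back-splice reads the members hardly moved. They held 47.3%, 47.4% and 45.9% in DMSO and 47.7%, 46.5% and 45.5% in Osi. The groups overlapped, at 46.9 ± 0.834% against 46.5 ± 1.11% (SD, n = 3; exact permutation p = 0.7, two-sided). The share of circRNAs over 30 kb stood at 14.4 ± 1.17% in DMSO and 16.7 ± 0.247% in Osi without overlap (exact permutation p = 0.1), and that of circRNAs under 5 kb at 38.7 ± 1.25% and 36.7 ± 0.963% (exact permutation p = 0.2).

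More members were detected after Osi. The DMSO libraries had reads for 532, 605 and 572 members and the Osi libraries for 641, 725 and 656. The groups did not overlap, at 570 ± 36.6 against 674 ± 44.8 (SD, n = 3; exact permutation p = 0.1, two-sided, the smallest possible). The rise was not particular to the members. The mean number detected rose 1.18-fold for them, beside 1.26-fold under 5 kb, 1.25-fold over 30 kb and 1.22-fold over all circRNAs. Detection moves with the number of reads, and at an expected 4951 circRNA reads per library the numbers became 529, 577 and 551 against 601, 667 and 614, still without overlap.

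**Figure D2:**
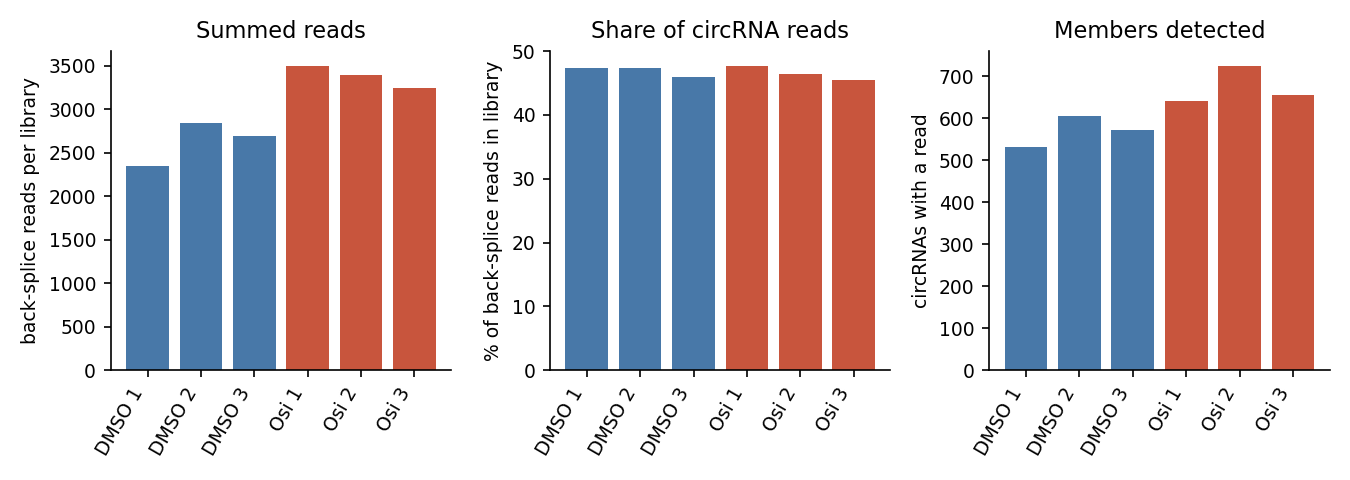
Summed back-splice reads of the members (left), their share of all back-splice reads in % (middle) and the number of members with a read (right) in each DMSO library (blue) and Osi library (red); 1 bar per library. The Osi bars stand above every DMSO bar in reads (3241 to 3496 against 2341 to 2842) and in members detected (641 to 725 against 532 to 605), while the shares overlap.

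Single members were seen irregularly. A total of 155 members (10.9%) had reads in all 6 libraries and 571 (40.0%) in 1 library, while 707 were seen in both treatments, 305 in DMSO libraries alone and 416 in Osi libraries alone. The 155 held 36.9% of the members' reads and the 571 held 13.4%. Across the 1428 members, which are not independent replicates, log2(reads + 1) had a Pearson correlation of 0.35 to 0.36 between DMSO libraries (Spearman 0.293 to 0.301), 0.37 to 0.39 between Osi libraries (Spearman 0.310 to 0.331) and 0.28 to 0.34 between treatments (Spearman 0.243 to 0.274).

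Longer members were detected more steadily. Reads in all 6 libraries were found for 7.79% of the 552 members from 5000 to 10000 bases, 11.8% of the 566 over 10000 and up to 20000 bases and 14.5% of the 310 over 20000 bases. Outside these limits the shares were 9.08% for circRNAs under 5 kb and 17.3% for those over 30 kb. Among the members, values that are not whole were also more frequent with span, in 29.3%, 36.0% and 46.1% of the rows of the 3 ranges, and the part this plays in the detection was not tested.

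**Figure D3:**
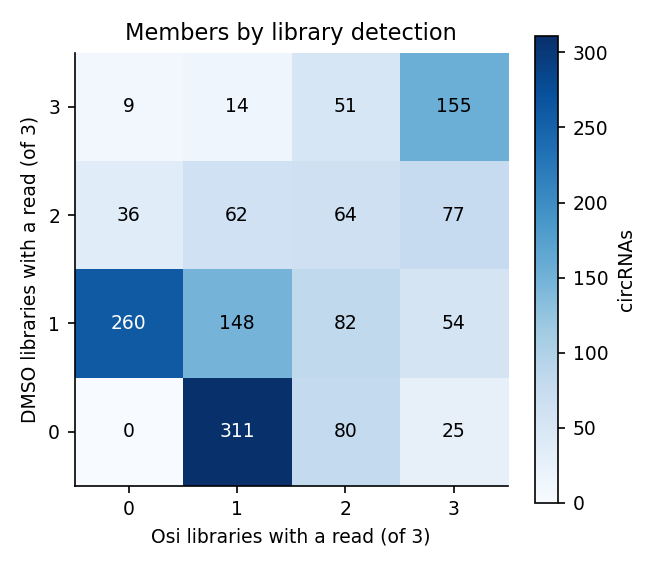
Number of members by how many of the 3 DMSO libraries (vertical) and the 3 Osi libraries (horizontal) had a read; darker blue means more members. The largest cells are members in 1 Osi library and no DMSO library (311) and in 1 DMSO library and no Osi library (260), and 155 members were in all 6.

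The most abundant member was hsa_circMAN1A2_003 (chr1:117944808-117957453, plus strand, build hg19), exons 2 to 4 of MAN1A2, which encodes a Golgi mannosidase that trims N-glycans. It had 36, 36.3 and 48.7 reads in DMSO and 69.3, 28 and 30 in Osi. Osi replicate 1 was the highest library and the other Osi libraries were below all DMSO libraries, so the groups overlapped, with a log2 fold change of -0.24 ± 0.37 (SE; limma adjusted p = 0.773). Fold changes are on the scale of log2(scaled reads + 1), which shrinks the change of rare circles.

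hsa_circZKSCAN1_002 (chr7:99616854-99621930, plus strand), exons 2 to 5 of a zinc finger gene, had 29, 18 and 22 reads in DMSO and 15.5, 20.5 and 26.5 in Osi. The groups overlapped (log2 fold change -0.34 ± 0.34, limma adjusted p = 0.709). hsa_circKIAA0368_004 (chr9:114148657-114154104, minus strand), from the proteasome scaffold gene now named ECPAS, had 19, 17 and 13 against 26, 14 and 32 reads. hsa_circRTN4_009 (chr2:55209651-55214834, minus strand), from the reticulon that shapes the endoplasmic reticulum (ER), had 18, 19 and 28 against 12, 27 and 14. Neither pair of groups was separate, with limma adjusted p of 0.761 and 0.622.

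hsa_circSLC39A8_008 (chr4:103225474-103236987, minus strand), from a zinc and manganese transporter, had 12, 25 and 13 reads in DMSO and 26, 20 and 20 in Osi. hsa_circSOD2_001 (chr6:160103506-160109274, minus strand), from the mitochondrial superoxide dismutase gene, had 8, 14 and 11 against 29, 12 and 18. Both overlapped between the groups (limma adjusted p = 0.769 and 0.622). hsa_circZFX_010 (chrX:24190832-24197887) had 19, 19 and 16 against 10, 14 and 13 reads, lower in every Osi library (log2 fold change -0.71 ± 0.31, limma adjusted p = 0.359). Its row gives the minus strand, while ZFX, a zinc finger transcription factor gene, is annotated on the plus strand. Only exons on the strand of the row were compared, so no pair of ZFX exon ends could be matched.

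The remaining 3 of the 10 most abundant members had more reads in every Osi library than in any DMSO library, and 2 of them are described here. hsa_circZNF124_010 (chr1:247302018-247323115, minus strand), from a zinc finger gene, had 8.5, 10.5 and 8.33 against 22, 19.5 and 26.3 (log2 fold change 1.03 ± 0.30, limma adjusted p = 0.152). hsa_circVPS13C_014 (chr15:62299507-62306191, minus strand), exons 10 to 15 of a lipid transfer protein gene, had 6, 16 and 11 against 26, 28 and 18 (log2 fold change 0.93 ± 0.40, limma adjusted p = 0.359). In both the groups were separate by unscaled reads, and neither passed the adjusted threshold. The scaling factors of DMSO replicate 2 and Osi replicate 3 were 0.932 and 1.06. Once divided by them, the 16 and 18 reads of hsa_circVPS13C_014 no longer keep the groups apart.

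**Figure D4:**
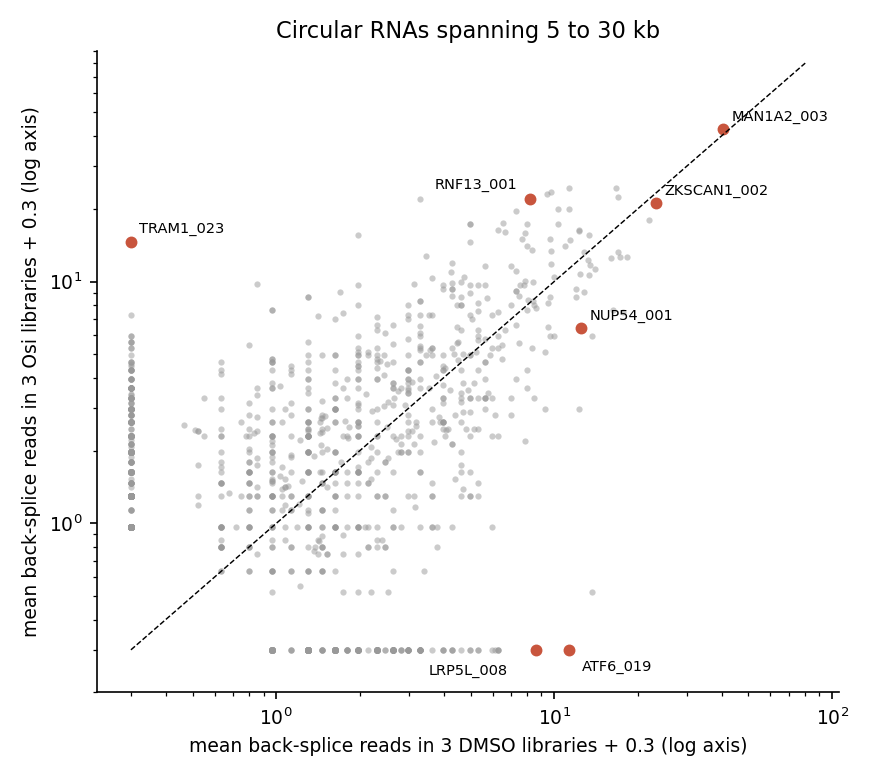
Mean back-splice reads of each member in the 3 DMSO libraries (horizontal) and the 3 Osi libraries (vertical), both plus 0.3 on log axes; the dashed line marks equal means and the red points are named members. Most abundant members lie near the line, hsa_circTRAM1_023 has no DMSO read, and hsa_circATF6_019 and hsa_circLRP5L_008 have no Osi read.

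Across the table, 871 circRNAs had at least 2 reads in at least 3 libraries and were tested with limma, and 423 of the 1428 members were among them. No circRNA passed an adjusted p of 0.05 (0% of 871), so no member did, and the smallest adjusted p was 0.0619. At an unadjusted p under 0.05 there were 33 members higher in Osi, 7.80% of those tested beside 9.64% of all tested circRNAs, and 14 lower, 3.31% beside 4.13%. The members thus stood near the background of the table in both directions. Their median log2 fold change was 0.21 beside 0.22 for all, and 58.4% beside 58.1% had a value above 0. The members' median moved to 0.38 with no scaling of the libraries and to 0.074 with scaling by total circRNA reads, so a value near it gives no direction of its own. With other settings of the fit between 0 and 21 members passed. The 21 came with a pseudocount of 0.1, where 5.97% of all tested circRNAs passed, and limma without a trend gave 13 members, where 3.56% of all passed. The authors' deposited table gives 65 members the state Up, beside 4.87% of all circRNAs, and 24 the state Down, beside 1.5%. It lists 2 members with an adjusted p under 0.05, beside 0.133% of all circRNAs.

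Of the 47 members with an unadjusted p under 0.05, 20 were seen in 1 treatment alone, 13 in Osi and 7 in DMSO. Those could pass the filter only through the group that had reads, so they had to differ and their number supports nothing. All 20 tested members of this kind had an unadjusted p under 0.05. The choice also fixed their presence in every library of 1 group and the separation of their groups. The values of such members given below therefore describe them and are no evidence of a change. Over all members, 25 (1.75%, beside 1.9% of all circRNAs) had reads in all 3 Osi libraries and no DMSO library, with means of 1.33 to 14.3 reads. In the opposite direction 9 (0.630%, beside 0.601%) had reads in all 3 DMSO libraries and no Osi library, with means of 1.5 to 11 reads. By unscaled reads, groups that did not overlap were found for 80 members higher in Osi (5.60%, beside 5.54%) and 23 lower (1.61%, beside 1.63%). A group at 0 reads allows up to 3 reads over its libraries, so folds for such members are the other group's summed reads divided by 3. These lower bounds are on unscaled reads and cover the counting error of the group at 0 alone. The counting error of the other group is left out. The Osi libraries had more circRNA reads in total, so scaling would lower the bounds of members higher in Osi.

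Among members seen after Osi alone, hsa_circTRAM1_023 (chr8:71495399-71510490, minus strand) had the most reads. It takes in exons 3 to 10 of TRAM1, whose protein helps nascent chains enter the ER. It had 0, 0 and 0 reads in DMSO and 10, 16 and 17 in Osi. The groups were separate, at least 14.3-fold higher in Osi, with a limma adjusted p of 0.0619.

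hsa_circRNF169_001 (chr11:74500671-74528759, plus strand), from a gene whose protein binds ubiquitin marks at DNA breaks, had no DMSO read and 3, 11 and 7 Osi reads, at least 7-fold higher. hsa_circARHGEF26_005 (chr3:153935658-153958368, plus strand), exons 10 to 12 of ARHGEF26, had no DMSO read and 7, 4 and 6 Osi reads, at least 5.67-fold higher. hsa_circPPP6R2_003 (chr22:50810449-50832564, plus strand), from a regulatory subunit gene of protein phosphatase 6, had no DMSO read and 4, 4 and 9 Osi reads, also at least 5.67-fold higher. As the filter required, each of the 3 was present in every Osi library, with limma adjusted p of 0.0856, 0.0830 and 0.0856.

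hsa_circN4BP1_001 (chr16:48587450-48596355, minus strand), exons 2 to 3 of a ribonuclease gene, had no DMSO read and 5, 5 and 4 Osi reads, at least 4.67-fold higher. hsa_circSWT1_002 (chr1:185183639-185200840, plus strand), exons 14 to 16 of an endoribonuclease gene, had no DMSO read and 4, 3 and 5 Osi reads, at least 4-fold higher. Both had a limma adjusted p of 0.0856, and none of the 6 circles named here passed 0.05.

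In the opposite direction, hsa_circATF6_019 (chr1:161771841-161789608, plus strand) led. It takes in exons 7 and 8 of ATF6, the gene of an ER membrane protein that is cleaved under protein-folding stress to release a transcription factor. Those exons come to 407 bases, which equals the spliced length deposited for it. It had 12, 15 and 6 reads in DMSO and 0, 0 and 0 in Osi. Every DMSO library was above every Osi library, at least 11-fold lower in Osi (limma adjusted p = 0.0619). In the authors' deposited table, whose test used other settings, it had an adjusted p of 0.0470 and the state Down, and hsa_circTRAM1_023 one of 0.0351 and the state Up.

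The locus gave 1 further member. hsa_circATF6_024 (chr1:161748034-161772062, plus strand), which takes in exons 2 to 7, had 3 reads in Osi replicate 2 and none elsewhere, too few to test. The labels do not say by coordinates which circle of the gene is the one overexpressed elsewhere in the series, so neither is called by that name here. Of the other genes central to this line, MET gave hsa_circMET_005 (chr7:116398513-116414980, plus strand) with 3 reads in DMSO replicate 3 alone, and the EGFR circle of the table, spanning 133825 bases, is no member.

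hsa_circLRP5L_008 (chr22:25771780-25777545, minus strand) had 5, 9 and 11 reads in DMSO and none in Osi, at least 8.33-fold lower (limma adjusted p = 0.0714). LRP5L resembles part of LRP5, and whether reads were split between them was not tested. hsa_circCYP24A1_003 (chr20:52773708-52788209, minus strand), exons 3 to 11 of the vitamin D 24-hydroxylase gene, had 7, 5 and 6 against none, at least 6-fold lower (limma adjusted p = 0.0740). hsa_circCASP8AP2_006 (chr6:90571845-90578801, plus strand), exons 7 and 8 of a gene for a histone mRNA processing factor, had 6.5, 4 and 7 against none, at least 5.83-fold lower (limma adjusted p = 0.0740). In all 3 the groups were separate, as the filter required.

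hsa_circPDK1_008 (chr2:173423436-173431661, plus strand), exons 2 to 7 of a pyruvate dehydrogenase kinase gene, had 4, 6 and 5 reads in DMSO and none in Osi, at least 5-fold lower (limma adjusted p = 0.0784). hsa_circGALNT7_002 (chr4:174145265-174169591, plus strand), from an enzyme gene of O-glycosylation, had 4, 5 and 3 against none, at least 4-fold lower (limma adjusted p = 0.0856). Again each DMSO library had reads and no Osi library did.

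**Figure D5:**
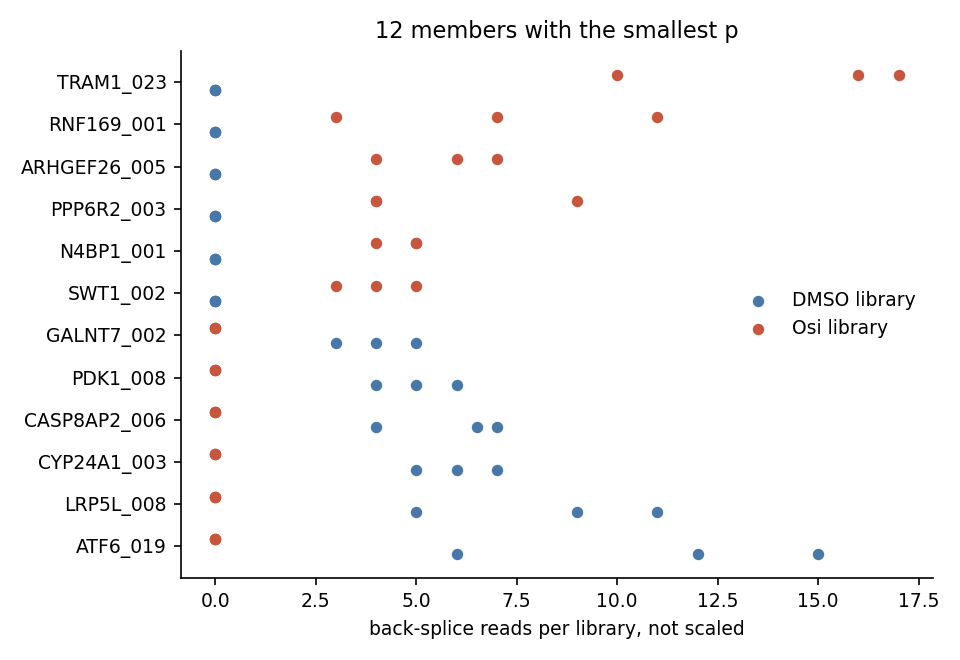
Unscaled back-splice reads in each DMSO library (blue) and Osi library (red) for the 12 members with the smallest p, 6 in each direction; overlapping points coincide. One treatment is at 0 for all 12, and the other runs from 3 to 17 reads.

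The host genes of these 12 circles can be set beside them only in other libraries, Parental EV and drug-tolerant persister (DTP) EV, with 30320803 to 40476791 gene counts per library. By unscaled counts, the 2 groups of libraries were separate for 7 of the 12 hosts, in the direction of the circle for 6 and opposite to it for 1, and overlapped for 5. Over all 1256 hosts in the gene table, 16% were higher in every DTP EV than in every Parental EV library and 50.2% lower, so separate hosts were common and nothing particular to the 12 is read from their number. CYP24A1 had 10117 to 11788 counts in Parental EV and 226 to 409 in DTP EV, and PDK1 3853 to 4432 and 440 to 719. TRAM1 had 4790 to 5552 and 19871 to 29226, and ARHGEF26 471 to 555 and 1429 to 1932. LRP5L and CASP8AP2 were the other 2 hosts that stood apart in the direction of their circles. ATF6 had 2848 to 3452 and 2944 to 3314 counts, overlapping, although its circle had no read in the Osi libraries. RNF169 had 3276 to 3840 and 1653 to 1959, lower where its circle was higher. The cells differ between these library sets, so the relation of circle to host was not tested, and in bulk RNA fewer cells with a transcript and less transcript per cell cannot be told apart.

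The 27 members with an unadjusted p under 0.05 and reads in both treatments comprised 20 higher and 7 lower in Osi. Of them, 12 were read in all 6 libraries, and the groups did not overlap by unscaled reads in 25. Choosing by a small p favours this separation, so the number 25 supports nothing. Over all members the shares without overlap were 5.60% higher and 1.61% lower in Osi, beside 5.54% and 1.63% of all circRNAs. Some of the 27 passed the filter of 2 reads through a single group. For hsa_circSLC25A24_003, named below, no DMSO library reached 2 reads, so it passed through Osi alone. For such members the filter itself favoured a difference, and their values only describe them. The members named in the next paragraphs were chosen after their values were seen, and none passed an adjusted p of 0.05.

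hsa_circRNF13_001 (chr3:149563798-149570383, plus strand), exons 3 and 4 of a membrane ubiquitin ligase gene, had 7.38, 8.75 and 7.63 reads in DMSO and 25.8, 20.9 and 18.3 in Osi. The groups were separate, with an SD of 0.732 reads in DMSO and 3.81 in Osi (log2 fold change 1.14 ± 0.30, limma adjusted p = 0.104). The values of this row become whole only when multiplied by 8, so their spread is not that of whole reads. hsa_circSLAIN2_001, exons 2 to 6 of a microtubule plus-end protein gene, had 0, 5 and 0 against 15, 13 and 18 (log2 fold change 3.03 ± 0.77, limma adjusted p = 0.0958). hsa_circADAMTS6_005, exons 2 to 7 of a secreted metalloprotease gene, had 3, 0 and 6 against 21, 17 and 27 (log2 fold change 2.72 ± 0.72, limma adjusted p = 0.105). Both circles were in every Osi library and missing from at least 1 DMSO library.

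hsa_circSLC25A24_003, exons 4 to 7 of a mitochondrial carrier gene, had 0, 0 and 1.67 reads in DMSO and 15, 4.33 and 9 in Osi (limma adjusted p = 0.101). hsa_circESYT2_001, exons 17 to 20 of a gene for a tether between the ER and the plasma membrane, had 8.14, 5.86 and 4.71 against 23.1, 15.4 and 13.1 (log2 fold change 1.14 ± 0.37, limma adjusted p = 0.209). hsa_circPDLIM5_014, from a cytoskeletal scaffold gene, had 4.14, 5.14 and 4 against 10.4, 9.71 and 10.4 (log2 fold change 0.87 ± 0.36, limma adjusted p = 0.336). All 3 were higher in each Osi library than in any DMSO library.

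Lower in Osi was hsa_circPLOD2_002, exons 2 to 7 of a collagen lysyl hydroxylase gene, with 16, 20 and 16 reads in DMSO and 8.5, 4 and 9 in Osi (log2 fold change -1.41 ± 0.38, limma adjusted p = 0.106). hsa_circANKRD26_008, from a centriole appendage gene, had 5.67, 6 and 11 against 2, 2.33 and 1.33 (log2 fold change -1.68 ± 0.48, limma adjusted p = 0.134). hsa_circNCOA3_010, exons 4 to 9 of a nuclear receptor coactivator gene, had 12, 8 and 7 against 5, 0 and 3 (log2 fold change -1.92 ± 0.70, limma adjusted p = 0.256). The groups were separate in these 3 as well.

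Of the 155 members in all 6 libraries, 146 were tested, and 83 had a log2 fold change above 0 and 63 below, with a median of 0.09. By unscaled reads, the Osi libraries were all above the DMSO libraries for 27 of the 155 (17.4%) and all below for 6 (3.87%). Beside these stood 17.1% and 5.09% of the 334 circRNAs of any span that were read in all 6 libraries. By span, the median log2 fold change of tested members was 0.21 from 5000 to 10000 bases, 0.10 over 10000 and up to 20000 bases and 0.49 over 20000 bases, beside 0.18 for circRNAs under 5 kb and 0.38 for those over 30 kb.

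Sorted by what their hosts do, the members of 8 lists of genes are given here, and no member of any of them passed the adjusted threshold. The counts above 0 and the medians of every list stand beside 58.1% and 0.22 for all tested circRNAs. The lists had 7 to 14 tested members each. These can include members seen in 1 treatment alone, which had to differ. Hosts of ER, Golgi and calcium handling gave 29 members, of which 14 were tested, 10 with a log2 fold change above 0 (median 1.03 beside 0.22 for all tested circRNAs) and 3 higher and 1 lower at an unadjusted p under 0.05, beside 9.64% and 4.13% of all tested circRNAs. At that p there was 1 higher member in each of the ubiquitin, kinase, cell cycle, nuclear pore and transcription factor lists, and 1 lower in the transcription factor list. Hosts encoding splicing and RNA-binding proteins gave 35 members, of which 13 were tested, 6 above 0 (median -0.47) and none at an unadjusted p under 0.05. In that list hsa_circRBM39_018, from a splicing factor gene, had 10, 14.7 and 14.3 against 17.7, 12.7 and 15.7 reads, and hsa_circRBM33_018 12.2, 12.7 and 16.3 against 10, 11 and 12. The former overlapped between the groups, and the latter was lower in each Osi library (log2 fold change -0.48 ± 0.31, limma adjusted p = 0.581).

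Transcription factor and corepressor hosts gave 35 members, of which 9 were tested, 6 above 0 (median 0.91). Ubiquitin ligase and deubiquitinase hosts gave 32 members with 10 tested and 8 above 0 (median 0.66), and protein kinase hosts 31 members with 10 tested and 8 above 0 (median 0.44). In these lists hsa_circELK4_003, from an ETS-domain transcription factor gene, had 30, 14 and 7 against 8, 21 and 8 reads, hsa_circMIB1_002, from a Notch ligand ubiquitin ligase gene, 8.2, 10.6 and 9.4 against 13.8, 10.2 and 10.6, and hsa_circCSNK1G3_002, from a casein kinase gene, 11, 13.5 and 11.5 against 13.5, 11 and 23. All 3 overlapped. hsa_circPRKCA_006, from the gene of protein kinase C alpha, had 14, 2 and 0 against 13, 11 and 10 reads, with DMSO replicate 1 above every Osi library.

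Chromatin and histone modifier hosts gave 30 members with 8 tested and 6 above 0 (median 0.47), and nuclear pore and transport hosts 20 members with 7 tested and 5 above 0 (median 0.55). hsa_circSETD3_005, from a histidine methyltransferase gene, had 8, 4 and 11 against 20, 17.5 and 13.5 reads, higher in each Osi library (log2 fold change 0.94 ± 0.42, limma adjusted p = 0.359). hsa_circPHIP_029 had 4, 14 and 10 against 0, 11 and 14. hsa_circNUP54_001, exons 2 to 9 of a nucleoporin gene, had 14.3, 9.67 and 12.7 against 1, 7.67 and 9.67, while hsa_circTNPO3_003, from an import receptor gene, had 10.7, 15 and 13.7 against 5.33, 14.7 and 14.3. hsa_circNUP54_001 met at 9.67 reads and hsa_circPHIP_029 and hsa_circTNPO3_003 overlapped.

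Cell cycle, centrosome and DNA repair hosts gave 30 members with 9 tested and 5 above 0 (median 0.07). hsa_circTOP1_006, exons 9 to 13 of the topoisomerase gene, had 13, 0 and 17 against 36, 13 and 10, and hsa_circKIF20B_004, from a mitotic kinesin gene, 9, 11 and 28 against 4, 18 and 0. The groups overlapped in both.

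Among hosts with 3 members the circles of a gene differed in level. AGTPBP1, a gene for a deglutamylating enzyme, gave hsa_circAGTPBP1_033 (exons 3 to 8) with 5, 6 and 2 against 3, 4 and 0 reads, hsa_circAGTPBP1_074 (exons 18 to 25) with 10 reads in Osi replicate 1 alone and hsa_circAGTPBP1_008 with 3 reads in DMSO replicate 2 alone. CLASP2, a gene for a microtubule-binding protein, gave hsa_circCLASP2_006 (exons 2 to 6) with 0, 5 and 6 against 0, 4 and 5, hsa_circCLASP2_035 (exons 9 to 12) with 3 reads in DMSO replicate 2 and hsa_circCLASP2_022 (exons 31 to 33) with 2 reads in Osi replicate 2. hsa_circAGTPBP1_033 and hsa_circCLASP2_006 had the most reads of the members of their gene over the 6 libraries, and both overlapped between the groups.

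NOL10, a nucleolar protein gene, gave hsa_circNOL10_022 (exons 7 to 13) with 0, 4 and 0 against 2, 6 and 0 reads, hsa_circNOL10_006 (exons 7 to 10) with 3 reads in Osi replicate 3 and hsa_circNOL10_008 (exons 14 to 17) with 6 reads in DMSO replicate 3. CHD9 gave hsa_circCHD9_004 with 1.5, 3.5 and 1 against 2.5, 5 and 6, and PCNXL2 gave hsa_circPCNXL2_066 with 0.8, 1 and 1.6 against 3, 0 and 4, too few to pass the filter. The best read circle of ZZZ3, hsa_circZZZ3_015, had 5.5, 7.5 and 8 against 14.5, 6.5 and 5.5. The groups overlapped in each of these circles that was read in both treatments.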

How the data were processed

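Total RNA depleted of ribosomal RNA was made into directional libraries, per the labels' protocols. FastQC, STAR, featureCounts, MultiQC and build hg19 are listed without versions, per the submitters' processing notes, and the circRNA caller is not given in the sources used here. The deposited circRNA values are log10(reads + 1) of back-splice reads, not scaled for library size, with columns headed D and O taken as DMSO and Osi from the titles' initials. Every row becomes whole when multiplied by 1 whole number, from 1 to 20; why is not stated, and 509 members need one above 1. The deposited gene table holds log10(count + 1). The authors' p-value, adjusted p-value and test scores are deposited beside the circRNA values, and their states Up and Down began at an absolute log10 fold change of 0.502. The deposited spliced length, in bases, exceeded the span in 266 members and was not used to define them. In a further deposited gene sheet, 6 columns of per-sample values could not be tied to samples and were not used.

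The log10 was undone and reads were rounded to 6 decimals. Scaling used trimmed means of M-values (TMM; trims 0.3 and 0.05), coded anew, with factors of 0.908 to 1.13. log2(scaled reads + 1) was compared in R 4.3.3 by limma 3.58.1 with trended variances, and Benjamini-Hochberg adjustment ran over all 871 circRNAs that had 2 reads or more in 3 libraries or more. The steps were tested on simulated data. One value per library was compared by an exact permutation test in scipy 1.17.1, two-sided. Read counts carry no molecular identifiers, so bounds from 0 reads cover only the counting error of the group at 0, on unscaled reads. Exons came from GENCODE release 29.

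The members and gene lists were chosen with earlier results of these data known. The text names the 10 members with the most reads, the 6 with the smallest p in each direction, up to 4 per direction seen in all libraries of 1 treatment alone, the best read member of the 6 hosts with the most members, up to 2 per gene list, members of ATF6, EGFR, MET and AXL, and the 3 nearest each limit of span. Of these, 1 member and 1 gene list with its named members are not reported here. Other members named were chosen after their values were seen. Alternatives were other scalings, filters, pseudocounts and thresholds, limma without trend, the replicate number as a block, and leaving out each library. Added after the data were seen were multiplying each row to whole reads and leaving out the repeated RAB6A row.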

Additional observations from a re-analysis of the deposited data

How the results depend on the processing

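The count of members called was 0 in the comparison as reported, and the count of all circRNAs called was 0. A pseudocount of 0.1 gave 21 members and 52 circRNAs, limma without trend 13 and 31, no filter 5 and 19, an adjusted p of 0.1 gave 19 and 46, and whole read sums per row 1 and 2. Other scalings, a filter of 5 reads, rounding, leaving out the repeated row and leaving out each library gave 0 of both. The replicate block also gave 0 and 0. Same-numbered libraries had correlations of their deviations of 0.04, -0.07 and -0.02. With so few reads per member, these values cannot tell whether the numbers pair the libraries. The median log2 fold change of tested members was 0.21, and it became 0.38 with no scaling, 0.074 with scaling by total circRNA reads, 0.31 with a pseudocount of 0.1, 0.28 with whole read sums and 0.13 to 0.24 with each library left out. The difference in the members' share, -0.362 percentage points, reversed to 0.175 without Osi replicate 3, within a range of -0.934 to 0.175 over libraries left out, to 1.12 over circRNAs that passed the filter and to 1.10 with whole read sums, with exact permutation p of 0.8, 0.5 and 0.7. The rise in members detected, 104, was 34.3 over circRNAs that passed the filter, where fewer circRNAs are counted. For the other changes the cause was not tested. Read depth limits what can be seen: 692 of 1428 members had a mean of 1 read or less, and 3 libraries a group cannot give an exact p below 0.1.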
